A study of Mus musculus with 6 samples.

Results

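The genes described here are the receptors for CXC and CX3C chemokines whose mRNA was followed in mouse CD4+ T cells: *Cxcr2*, *Cxcr3*, *Cxcr4*, *Cxcr6* and *Cx3cr1*. They were chosen by name and not by a cutoff on a measured value, but with earlier results of these data known. They are 5 of the 24223 genes in the count files, and all 5 were among the 13607 genes with enough counts to be tested. RNA-Seq libraries came from 3 groups of C57BL/6 cells with 2 libraries each. Naive were CD4+CD44- T cells purified with a cell isolation kit from the pooled lymph nodes and spleens of mice 1 to 2 months old. How many animals gave the cells of a library was not stated. Naive cells were not cultured. Th17 were the same kind of cells stimulated through CD3 and CD28 with anti-IL-4, anti-IFN-γ, TGF-β, IL-6, IL-1β and IL-23. Th1 were stimulated through CD3 and CD28 with anti-IL-4, IL-12 and IL-2. Both cultures were collected on the fifth day and were not sorted afterwards, and flow cytometry found the signature cytokine in only a part of each. Besides the cytokines, Th17 and Th1 share activation and culture, which Naive did not have.

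Chemokine receptors are G protein-coupled receptors with which a leukocyte reads gradients of chemokines and moves along them. A T cell changes this set of receptors as it differentiates, and with it the tissues that it can enter. CXCR3 and its interferon-induced ligands are known for bringing Th1 cells into inflamed tissue, CXCR4 for retention in bone marrow and lymphoid organs, CXCR6 for effector and resident T cells, CXCR2 for the recruitment of neutrophils and CX3CR1 for patrolling monocytes and cytotoxic lymphocytes.

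The promoters of the receptors that were called in at least 1 comparison are shown because the comparisons below turn on the mRNA made from them. Each run is the 250 bases before the RefSeq start of the gene on GRCm38.p6, read 5′ to 3′ on the strand of the gene, with matches in capitals to 7 motifs of factors active in T cells.
*Cxcr3* promoter, chrX:101734148-101734397, minus strand: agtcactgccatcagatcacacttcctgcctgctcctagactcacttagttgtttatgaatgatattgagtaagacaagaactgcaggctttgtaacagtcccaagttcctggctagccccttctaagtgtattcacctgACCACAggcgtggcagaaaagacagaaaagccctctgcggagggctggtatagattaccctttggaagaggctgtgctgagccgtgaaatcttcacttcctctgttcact
*Cxcr6* promoter, chr9:123806227-123806476, plus strand: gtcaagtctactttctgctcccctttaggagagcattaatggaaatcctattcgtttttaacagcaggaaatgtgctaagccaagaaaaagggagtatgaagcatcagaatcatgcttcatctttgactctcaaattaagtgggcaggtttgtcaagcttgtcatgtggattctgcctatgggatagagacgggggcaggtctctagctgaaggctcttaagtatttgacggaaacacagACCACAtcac
*Cxcr2* promoter, chr1:74153744-74153993, plus strand: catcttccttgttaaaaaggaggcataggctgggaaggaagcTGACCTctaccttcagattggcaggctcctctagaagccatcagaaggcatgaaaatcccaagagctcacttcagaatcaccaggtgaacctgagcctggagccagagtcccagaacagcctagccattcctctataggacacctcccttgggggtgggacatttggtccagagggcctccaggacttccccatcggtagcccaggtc
*Cx3cr1* promoter, chr9:120068297-120068546, minus strand: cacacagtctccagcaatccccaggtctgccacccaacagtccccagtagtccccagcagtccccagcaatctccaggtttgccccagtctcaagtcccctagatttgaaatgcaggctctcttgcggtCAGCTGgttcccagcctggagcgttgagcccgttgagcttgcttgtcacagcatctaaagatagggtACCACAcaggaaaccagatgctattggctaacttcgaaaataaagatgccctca
The motifs were searched on both strands as GGTGTGA for T-box factors, TTCNNNGAA for STAT factors, AGGTCA for ROR factors, TGANTCA for AP-1, TGTGGT for Runx factors, GGAAAA for NFAT and CAGCTG for E2A. The Runx motif was matched as ACCACA on the opposite strand once in each of the *Cxcr3*, *Cxcr6* and *Cx3cr1* windows, and 14.05% of the 32851 RefSeq promoters of this length held it. *Cxcr2* held the ROR motif as TGACCT, found in 14.02% of promoters, and *Cx3cr1* the E2A motif, found in 13%. No motif was matched in the *Cxcr4* window. The T-box motif stood in 3.333%, the STAT motif in 7.02%, the AP-1 motif in 6.749% and the NFAT motif in 20.43% of promoters, and in none of these 5. A match is a description of the letters and not a bound site.

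In the GENCODE annotation of GRCm38, *Cxcr2* lies on chromosome 1 from 74153989 to 74161246, *Cxcr4* on chromosome 1 from 128588199 to 128592293, *Cxcr3* on chromosome X from 101731535 to 101734269 and *Cxcr6* on chromosome 9 from 123806475 to 123811760. *Cx3cr1* is annotated on chromosome 9 from 119901616 to 120069879. *Cxcr6* lies inside *Fyco1*, a gene of the opposite strand with which it shares 0 exon bases. *Cx3cr1* shares 78 exon bases with the antisense gene *Gm33858*, so a few of its reads cannot be assigned to a strand with certainty. All counts below were summed over exons.

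The libraries held between 17742158 and 69080017 counts, and replicate 1 was the deeper one in each group. CPM stands for counts normalized by library size and a TMM factor (scaling factors 0.862 to 1.09), and 3 counts corresponded to between 0.0440 and 0.190 CPM. The labels were checked first. *Il17a* stood at 526 and 691 CPM in Th17 and at most at 0.541 CPM elsewhere, while *Tbx21*, which encodes T-bet, stood at 138 and 158 CPM in Th1, at 23.3 and 20.8 in Naive and at 4.57 and 2.72 in Th17. Of the other Th1 markers, *Il12rb2* stood at 338 and 281 CPM in Th1 and at most at 11.1 CPM elsewhere. The rest were not limited to Th1. *Ifng*, which encodes IFN-γ, *Il18rap* and *Gzmb* were called higher in Th17 than in Naive (log2 fold changes 3.64, 2.22 and 5.41). All 5 Th1 markers summed to 62.9 and 53.3 CPM in Naive, to 555 and 477 CPM in Th17 and to 1900.3 and 1366 CPM in Th1. *Gzmb* made up 379 and 333 CPM of the Th17 sums. The summed level of 8 T cell markers lay between 3492 and 5164 CPM in every library. Markers of naive T cells did not fall together in the cultures. *Lef1* stood at 287 and 475 CPM in Naive, 261 and 239.6 CPM in Th17 and 292 and 566 CPM in Th1, and *Ccr7* at 296 and 396, 323 and 370.3, and 346 and 523 CPM. *Tcf7* was at 1322 and 2197 CPM in Naive against 587 and 1233 CPM in Th1 (log2 fold change -0.95, not called), whereas *Satb1* was at 409.6 and 775 CPM against 1389 and 1845 CPM (1.45, not called). Markers of other cells were also measured and are given beside the receptors with which they moved. In such bulk libraries, fewer cells of a type and less RNA per cell cannot be told apart.

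**Figure D1:**
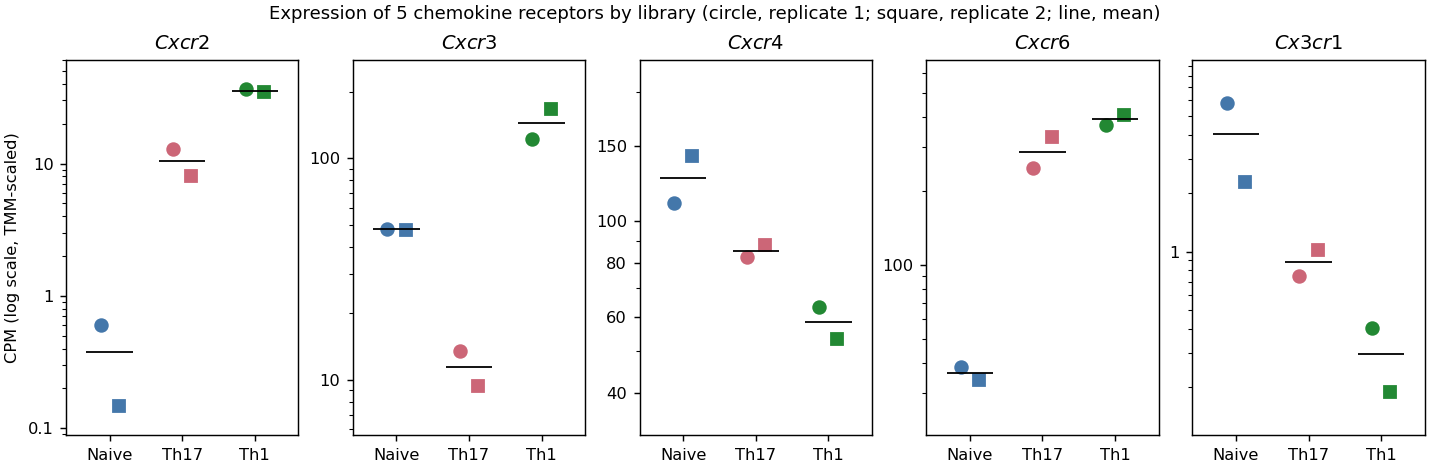
Level of the 5 receptors in each library, in CPM on a log axis, with one point per library and a line at the mean of each group. *Cxcr6* and *Cxcr2* were lowest in Naive, *Cxcr3* was lowest in Th17, and *Cxcr4* and *Cx3cr1* were highest in Naive.

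*Cxcr3*, the receptor for CXCL9, CXCL10 and CXCL11, moved in opposite directions in the cultures. It stood at 48.3 and 47.5 CPM in Naive, at 13.6 and 9.45 CPM in Th17 and at 122 and 167 CPM in Th1, from 3294, 959, 888, 167, 7894 and 2637 counts in the same order. Every Th1 library lay above every Naive library and every Naive library above every Th17 library. The means were 47.9 ± 0.608 (SD, n = 2), 11.5 ± 2.93 and 144 ± 31.5 CPM, so that Naive was 4.16-fold above Th17, and Th1 was 3.01-fold above Naive and 12.5-fold above Th17. In log2 fold change this was -2.05 ± 0.30 (SE) in Th17 against Naive with an adjusted p of 0.0019, and 1.59 ± 0.29 in Th1 against Naive with an adjusted p of 0.0051, by edgeR's quasi-likelihood test with Benjamini-Hochberg adjustment over all 13607 genes. Between Th1 and Th17 it was 3.64 ± 0.31, with a 95% interval from 2.94 to 4.34 and an adjusted p of 1.9e-04, and *Cxcr3* ranked 131 of 13607 from the highest log2 fold change. That last call held whichever library was left out. The fall in Th17 was no longer called without Th17 replicate 2 (log2 fold change -1.82, adjusted p 0.019), and the rise in Th1 over Naive was not without Naive replicate 1 (1.60, 0.028), Naive replicate 2 (1.58, 0.021) or Th1 replicate 2 (1.36, 0.030). Scaling by library size alone also ended the rise in Th1 (1.33, 0.018), a setting in which the median of all genes in that comparison shifted by -0.25.

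*Cxcr6*, the receptor for the membrane-bound chemokine CXCL16, was up-regulated in both cultures. Its level was 38.5 and 33.9 CPM in Naive, 247 and 331 CPM in Th17 and 372 and 408 CPM in Th1. All 4 cultured libraries lay above both Naive libraries, and both Th1 libraries above both Th17 libraries by a margin smaller than the gap between the Th17 libraries. Means were 36.2 ± 3.24, 289 ± 59.5 and 390 ± 25.5 CPM (SD, n = 2), 7.97-fold higher in Th17 and 10.8-fold higher in Th1 than in Naive. The log2 fold change from Naive was 2.99 ± 0.29 (SE) for Th17 (edgeR adjusted p 2.6e-04) and 3.43 ± 0.30 for Th1 (adjusted p 1.3e-04). Both calls held under each of the 16 alternative settings, among them leaving out each library in turn. Th1 and Th17 differed by 0.43 ± 0.27 in log2 fold change, which was not called (adjusted p 0.29), with a 95% interval from -0.17 to 1.04.

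*Cxcr2* binds the ELR-bearing CXC chemokines and is best known from neutrophils. It was low in Naive, where replicate 2 alone was near the limit of detection, and higher in both cultures. Naive held 41 and 3 counts, Th17 held 837 and 142, and Th1 held 2343 and 552. Those counts gave 0.602 and 0.149 CPM in Naive, 12.8 and 8.03 CPM in Th17 and 36.2 and 34.9 CPM in Th1, and the groups did not overlap. Th17 was 27.8-fold and Th1 94.8-fold above Naive in mean CPM. Against Naive, the log2 fold change was 4.59 ± 0.54 (SE, edgeR adjusted p 6.6e-04) in Th17 and 6.36 ± 0.57 (adjusted p 1.5e-04) in Th1, where *Cxcr2* ranked 78 of 13607 from the highest. Both were called in each of 15 alternative settings, but the size depended on the Naive libraries, at 6.11 in Th17 and 7.87 in Th1 without Naive replicate 1 and at 4.11 and 5.88 without Naive replicate 2. With at least 10 counts required in every library, *Cxcr2* was not tested. Th1 was 3.41-fold above Th17, a log2 fold change of 1.76 ± 0.45 with a 95% interval from 0.77 to 2.76 that missed the threshold (adjusted p 0.027). It passed without Naive replicate 1 (adjusted p 0.0073), without Naive replicate 2 (0.0061), with the 4 libraries compared alone (0.0064) and with DESeq2 (1.77, adjusted p 8.7e-04).

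*Cxcr1*, the closest relative of *Cxcr2* and near it on chromosome 1, starting 30539 bases past the end of *Cxcr2*, was not one of the 5 receptors and followed the same order. It stood at 0.382 and 0.990 CPM in Naive, at 21.5 and 16.6 CPM in Th17 and at 91.4 and 95 CPM in Th1. Its log2 fold change was 4.96 in Th17 and 7.24 in Th1 against Naive (edgeR adjusted p 1.8e-04 and 3.3e-05). Both calls held with each library left out in turn, at 4.27 and 6.55 without Naive replicate 1 and at 5.63 and 7.92 without Naive replicate 2. In Th1 against Th17 it was 2.29 (adjusted p 0.0040), which was no longer called without Th17 replicate 1 (2.48, 0.026), Th17 replicate 2 (2.12, 0.037) or Th1 replicate 2 (2.27, 0.012).

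Because *Cxcr2* and *Cxcr1* are genes of neutrophils, the markers of that cell were read beside them. The summed level of 14 neutrophil markers, *Cxcr1* left out, was 377 and 224 CPM in Naive, 3185 and 2998 CPM in Th17 and 37.4 and 60.4 CPM in Th1. Of these 14, 12 exceeded 10 CPM in both Th17 libraries, 3 in both Naive libraries, and 0 and 2 in the Th1 libraries. *S100a8* was at 1149 and 1142 CPM in Th17 against 6.77 and 5.75 CPM in Th1 and at most 0.969 CPM in Naive. *Csf3r*, the receptor for G-CSF, had 370 and 51 counts in Th17 and 5 and 0 counts in Th1, where 0 counts allows up to 0.190 CPM. For 11 of the 14 both Th17 libraries lay above all others. The exceptions were the granule genes of early neutrophil precursors, *Mpo*, *Elane* and *Prtn3*. *Mpo* stood at 251 and 159 CPM in Naive, at 68.1 and 58.7 CPM in Th17 and at 6.76 and 7.52 CPM in Th1, and *Elane* at 57.3 and 29.6, 52.5 and 46.9, and 2.17 and 4.11 CPM. None of the 14 had both Th1 libraries above all others, whereas *Cxcr2* and *Cxcr1* did. The sum of 14 markers of monocytes, macrophages and dendritic cells, without *Ccr2*, was 49.8 and 26.3 CPM in Naive, 299.98 and 909 CPM in Th17 and 21.9 and 24.8 CPM in Th1. What part neutrophils or macrophages had in the *Cxcr2* and *Cxcr1* counts of Naive, Th17 or Th1 was not tested.

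**Figure D2:**
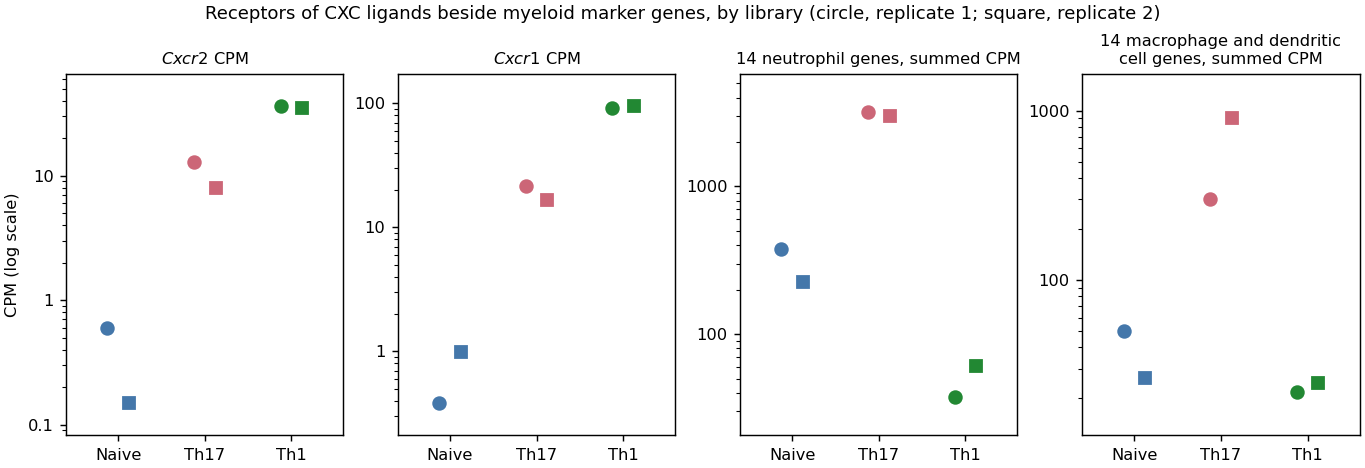
Levels of *Cxcr2* and *Cxcr1* and the summed levels of 14 neutrophil and 14 monocyte, macrophage and dendritic cell markers in each library, in CPM on a log axis. Both receptors were highest in Th1 (36.2 and 34.9 CPM for *Cxcr2*), and both marker sums were highest in Th17.

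*Cxcr4*, the receptor for CXCL12, was the one of the 5 that was not called in any comparison. It stood at 110.5 and 142 CPM in Naive, at 82.5 and 87.9 CPM in Th17 and at 63.3 and 53.2 CPM in Th1, with no overlap between groups. The means of 126 ± 22.4, 85.2 ± 3.85 and 58.2 ± 7.18 CPM (SD, n = 2) put Naive 1.48-fold above Th17 and 2.17-fold above Th1. It had a log2 fold change of -0.57 ± 0.26 (SE) in Th17 against Naive, with a 95% interval from -1.14 to 0.0038 (edgeR adjusted p 0.15). In Th1 against Naive it was -1.12 ± 0.26, with an interval from -1.69 to -0.54 and an adjusted p of 0.016, which lies above the threshold of 0.01. DESeq2 gave -1.11 with an adjusted p of 0.0012 and did call it, as did edgeR without a filter on low counts (-1.10, adjusted p 0.0037). Th1 differed from Th17 by -0.55 ± 0.26, with an interval from -1.12 to 0.025 (adjusted p 0.16).

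*Cx3cr1*, the receptor for fractalkine (CX3CL1), had few counts in all groups and the most in Naive. Naive held 395 and 46 counts, Th17 held 49 and 18, and Th1 held 26 and 3. On the CPM scale these were 5.80 and 2.28, 0.750 and 1.02, and 0.402 and 0.190, the last being the value of 3 counts. Groups did not overlap, but the Naive libraries differed 2.55-fold between themselves. The log2 fold change in Th1 against Naive was -3.65 ± 0.69 (SE, edgeR adjusted p 0.0061), and the mean was 13.6-fold higher in Naive. The call was lost without Naive replicate 1 (-2.82, adjusted p 0.049), Th17 replicate 1 (-3.65, 0.013), Th1 replicate 1 (-4.35, 0.025) or Th1 replicate 2 (-3.33, 0.031), and with the 4 compared libraries alone (-3.65, 0.011). In Th17 against Naive the log2 fold change was -2.23 ± 0.63, with an interval from -3.64 to -0.81 (adjusted p 0.042), and it was -1.38 without Naive replicate 1 (adjusted p 0.23). In Th1 against Th17 it was -1.43 ± 0.68, from -2.94 to 0.089 (adjusted p 0.17). Without a filter on low counts, the difference between Th17 and Naive was called (-2.24, adjusted p 0.0056).

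The Naive library with more *Cx3cr1* also held more RNA of other blood cells. The sum of 8 erythroid markers was 342 CPM in Naive replicate 1 and 37.8 CPM in Naive replicate 2, and at most 9.67 CPM in the cultures. Of the 8, the 4 globin genes were at 0 counts in all libraries, and *Car2*, a carbonic anhydrase of red cells and other cells, made up 301 and 36.5 CPM of the Naive sums. *Flt3*, of dendritic cells and progenitors, was at 6.65 and 2.48 CPM in Naive, at 1.24 and 1.47 CPM in Th17 and at 0.139 and 0.126 CPM in Th1, and *Csf1r* of the macrophage list at 7.41 and 4.80, 5.34 and 11.7, and 0.418 and 0.442 CPM. *Flt3* was not typical of its list. Of the 14 monocyte, macrophage and dendritic cell markers, 2 had both Naive libraries above all others and 9 had both Th17 libraries above all others. The 8 markers of NK and NKT cells, some of which carry CX3CR1, summed to 58.7 and 55.0 CPM in Naive, 25.1 and 27.7 CPM in Th17 and 37.7 and 21.6 CPM in Th1, but single members differed more than the sum. *Klrb1c*, which encodes NK1.1, had the order of *Cx3cr1*, at 17.4 and 11.2 CPM in Naive, 0.949 and 1.19 CPM in Th17 and 0.170 and 0.126 CPM in Th1, and was called lower in Th17 (-3.76) and Th1 (-6.49) than in Naive. *Zbtb16* also had that order, but *Eomes* and *Klrk1* did not. *Eomes* stood at 17.4 and 23.3 CPM in Naive, 1.12 and 0.679 CPM in Th17 and 12.3 and 11.9 CPM in Th1. *Klrk1* stood at 9.96 and 5.30, 10.7 and 16.9, and 18.9 and 5.63 CPM. The NK cell markers *Klra8* and *Klra4* were listed at 0 in all 6 libraries, as were the globin genes, so nothing was read from them. What these cells added to the *Cx3cr1* counts was not tested.

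Put together by comparison, 3 of the 5 receptors were called in Th17 against Naive, 2 higher (*Cxcr2*, *Cxcr6*) and 1 lower (*Cxcr3*). Of all tested genes, 4.01% were called higher and 1.43% lower there. In Th1 against Naive, 4 were called, 3 higher (*Cxcr2*, *Cxcr3*, *Cxcr6*) and 1 lower (*Cx3cr1*), beside 4.64% of all genes higher and 2.81% lower. In Th1 against Th17, *Cxcr3* alone was called, higher in Th1, beside 2.7% of genes called higher and 2.83% called lower. The first 2 comparisons share the Naive libraries and are not independent. The groups did not overlap for any of the 5 receptors in any comparison, which was also the case for 65.5% of genes in Th17 against Naive, 56% in Th1 against Naive and 66.6% in Th1 against Th17.

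**Figure D3:**
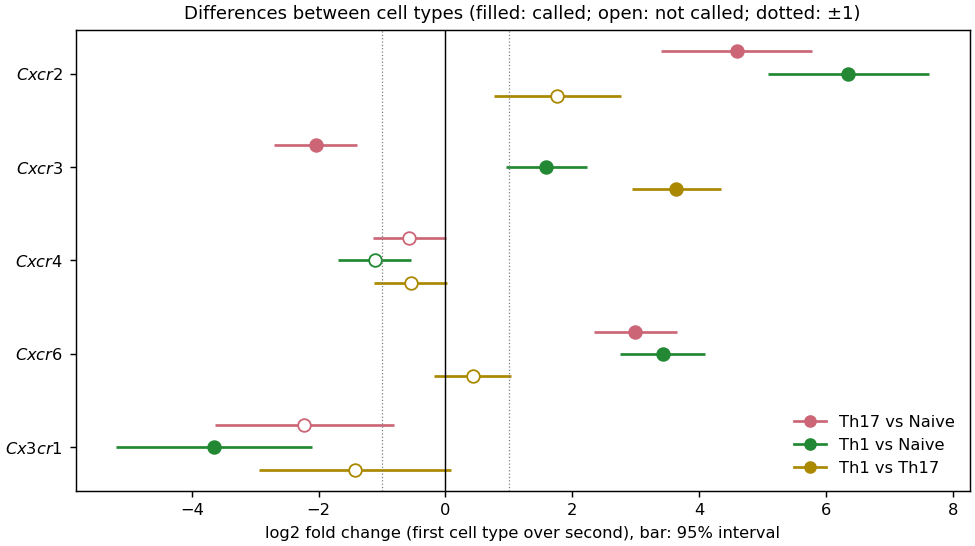
Log2 fold change of each receptor in the 3 comparisons, with 95% intervals from edgeR, and filled points for the receptors called (adjusted p under 0.01, log2 change beyond 1 or -1). *Cxcr3* was the receptor with calls in opposite directions, -2.05 in Th17 and 1.59 in Th1 against Naive.

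The order of the receptors within a cell type was read from CPM per kilobase of exon, since these genes differ in length. Naive held mainly *Cxcr4*, with 69.9 ± 12.4 CPM per kilobase (SD, n = 2), followed by *Cxcr3* with 27.7 ± 0.351 and *Cxcr6* with 18.7 ± 1.68. *Cx3cr1* (0.896 ± 0.552) and *Cxcr2* (0.123 ± 0.105) came last. *Cxcr4* made up 55.3% and 63.3% of the summed level of the 5 receptors in the Naive libraries.

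In Th17, *Cxcr6* came first with 149 ± 30.8 CPM per kilobase, then *Cxcr4* with 47.1 ± 2.13, *Cxcr3* with 6.65 ± 1.69, *Cxcr2* with 3.42 ± 1.11 and *Cx3cr1* with 0.196 ± 0.0421. *Cxcr6* held 68.8% and 75.1% of the sum. In Th1, *Cxcr6* (202 ± 13.2) was again first, but *Cxcr3* (83.4 ± 18.2) stood above *Cxcr4* (32.2 ± 3.97), *Cxcr2* (11.7 ± 0.313) and *Cx3cr1* (0.0657 ± 0.0334). *Cxcr6* held 62.1% and 60.6% and *Cxcr3* 22.8% and 27.6% of the Th1 sum, while *Cxcr4* held 11.3% and 8.44%. Both libraries of a group gave the same order in all 3 groups. The sum itself was 110 and 124 CPM per kilobase in Naive, against 186 and 228 for Th17 and 310 and 348 in Th1.

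**Figure D4:**
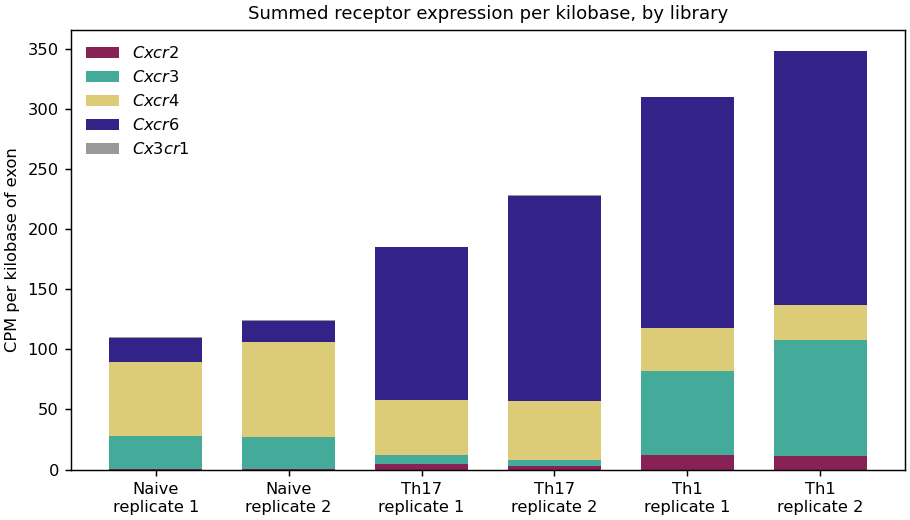
Level of each receptor in CPM per kilobase of exon, stacked to the sum of the 5, with one bar per library. *Cxcr4* took the largest share in Naive (55.3% and 63.3%), and *Cxcr6* in Th17 (68.8% and 75.1%) and Th1 (62.1% and 60.6%).

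The ligands of these receptors were read in the same libraries together with CXC ligands of close relatives, from a list of 16 genes of which 11 were tested. In Th17 against Naive, 6 were called higher and 0 lower (4.01% and 1.43% of all genes), with a median log2 fold change of 5.47 over the 11, beside -0.02 over all genes. In Th1 against Naive, 2 were called higher and 0 lower, beside 4.64% and 2.81% of all genes (median 3.03, all genes -0.02). In Th1 against Th17, 0 were higher and 4 lower, beside 2.7% and 2.83% (median -3.87, all genes -0.03). When ligands too low to detect were placed at their bound, the medians were 5.07, 1.38 and -3.60. Several ligands, such as *Cxcl1*, *Cxcl2*, *Cxcl3*, *Cxcl5* and *Cxcl16*, had most of their counts in Th17 and passed the low-count filter through that group. Their direction in the comparisons with Th17 was thus partly fixed by the filter, also with bounds. Nothing about the ligands as a set was therefore read from those counts and medians. The counts depended on the settings and on single libraries. They were 0, 1 and 0 when at least 10 counts were required in every library, 4, 1 and 3 with library size alone, and 6, 4 and 5 with DESeq2, and without a filter 8 and 6 were higher than in Naive and 7 lower in Th1 than in Th17. In the first of these settings, the ligands called in Th17 against Naive or in Th1 against Th17 were not tested. Each of them had under 10 counts in a Naive library. With libraries left out, the 6 became 4 without Naive replicate 1 and 3 without Th17 replicate 2, and the 4 became 6 without either Naive library, 2 without Th17 replicate 1, and 1 without Th17 replicate 2 or Th1 replicate 2. The 2 in Th1 became 1 without Naive replicate 2, Th17 replicate 1 or Th1 replicate 1, and 3 without Naive replicate 1 or Th1 replicate 2.

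The ligands of CXCR2 carried most of this. *Cxcl3*, a neutrophil attractant, had 0 counts in both Naive libraries and stood at 7.31 and 38.6 CPM in Th17 and at 0.0619 and 0.0632 CPM in Th1. Taking 3 counts per library as the floor, it was at least 238-fold higher in Th17 than in Naive, or at least 76-fold without Th17 replicate 2 and at least 401-fold without Th17 replicate 1. *Ppbp*, a platelet chemokine, was at 0.0587 and 0 CPM in Naive, at 60.8 and 88.5 CPM in Th17 and at 18.0 and 6.70 CPM in Th1, and was called higher in both cultures than in Naive with each library left out in turn. *Cxcl5* had 1 and 0 counts in Naive, 178 and 124 counts in Th17 and 21 and 2 counts in Th1. *Cxcl2* stood at 2.36 and 8.77 CPM in Th17 and at most at 0.132 CPM elsewhere. The calls of *Cxcl3* and *Cxcl5* in Th17 against Naive also held with each library left out, while that of *Cxcl2* was lost without Naive replicate 1 (5.74, adjusted p 0.025), Naive replicate 2 (5.34, 0.016) or Th17 replicate 2 (4.26, 0.036). *Cxcl1* had 0 counts in Naive and was not called in any comparison. The 4 platelet markers besides *Ppbp* and *Pf4* summed to 21.3 and 5.35 CPM in Naive, 89.3 and 119 CPM in Th17 and 35.4 and 19.5 CPM in Th1, highest in Th17 as the ligands were. *Cxcl3*, *Cxcl2* and *Cxcl5* were higher in Th17 replicate 2 than in Th17 replicate 1, as were the platelet sum, the monocyte, macrophage and dendritic cell sum given above and the sum of 8 mast cell and basophil markers (176 and 55.7 CPM in Naive, 233 and 453 CPM in Th17 and 85.7 and 70.1 CPM in Th1). The sums of T cell markers (3705 and 4528 CPM in Th17 replicates 1 and 2) and of Th17 markers (1412 and 1877 CPM) were higher in Th17 replicate 2 as well. That direction was thus not particular to platelets, macrophages, mast cells or basophils. The neutrophil sum was lower in Th17 replicate 2 (2998 CPM) than in Th17 replicate 1 (3185 CPM). What part any of these cells had in the ligand counts was not tested.

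Among the ligands of CXCR3, *Cxcl10* stood at 1.35 and 0.792 CPM in Naive, at 2.65 and 1.36 CPM in Th17 and at 14.7 and 3.10 CPM in Th1, and was not called in Th1 against Naive (log2 fold change 3.03, 95% interval 1.39 to 4.67, adjusted p 0.020). *Cxcl9* did not exceed 1.72 CPM in any library and was not called, and *Cxcl11* was not tested. *Cxcl12*, the ligand of CXCR4, had 0 counts in all 6 libraries, which by counting error alone allows up to 0.0440 CPM in the deepest Naive library and 0.190 CPM in the shallowest Th1 library. The globin genes were also at 0 throughout, so absence of *Cxcl12* RNA was not read from these counts. *Cxcl16*, the ligand of CXCR6, was called higher in Th17 than in Naive (5.07, adjusted p 0.0065), from 0.0587 and 0.297 CPM to 2.40 and 7.47 CPM, and that call was lost without Naive replicate 1 (4.02, 0.034) or Th17 replicate 2 (3.99, 0.052), and leaving out Naive replicate 2 or Th17 replicate 1 gave 6.30 or 5.66. *Cx3cl1* stayed at or under 1.42 CPM and was not called.

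**Figure D5:**
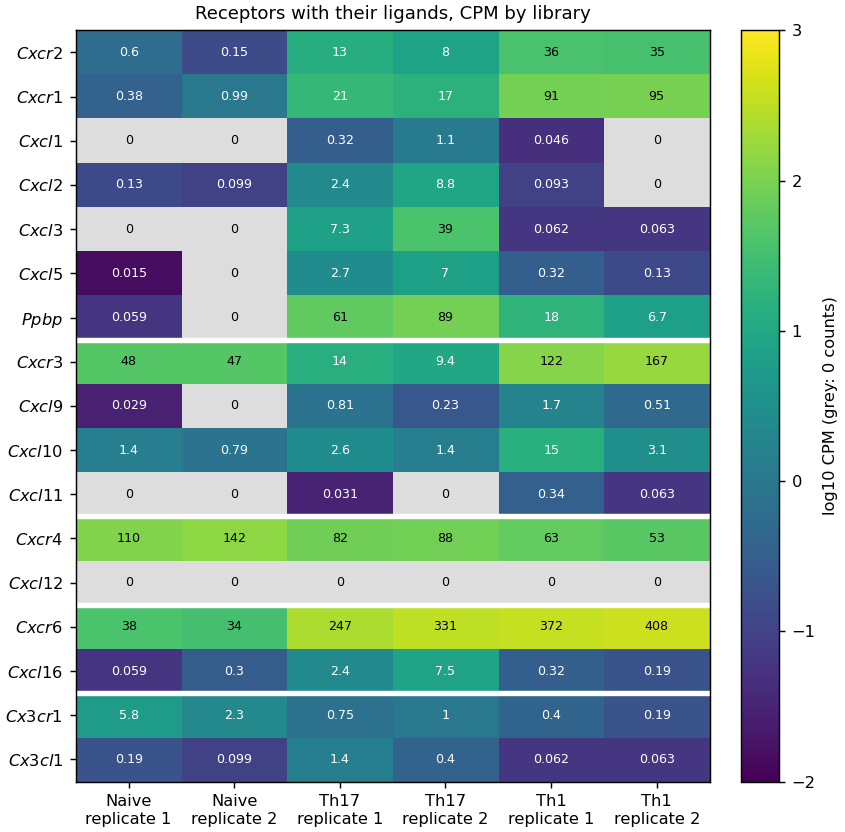
Levels of the receptors, of *Cxcr1* and of their ligands in each library, with the CPM printed in each cell and log10 CPM as its colour (grey for 0 counts). The ligands of CXCR2 were highest in Th17 (*Cxcl3* at 7.31 and 38.6 CPM), whereas *Cxcr2* was highest in Th1.

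Of 9 other receptors, namely CXC and atypical chemokine receptors together with *Xcr1* and *Cmklr1*, 6 were tested. In Th17 against Naive, *Cxcr1* was called higher and *Cxcr5* lower, in Th1 against Naive *Cxcr1* and *Xcr1* higher and *Cxcr5* lower, and in Th1 against Th17 *Cxcr1* higher, beside the shares of all genes given for the ligands. With DESeq2 the counts were 2 higher and 1 lower, 3 and 1, and 2 and 1. The medians over the 6 were 2.16, 0.59 and -0.46 on the log2 scale. *Cxcr5*, with which T cells enter B cell follicles, fell from 19.2 and 25.8 CPM in Naive to 4.70 and 4.19 CPM in Th17 and to 1.11 and 1.64 CPM in Th1. Its log2 fold change of -4.06 in Th1 was called with each library left out in turn, and that of -2.34 in Th17 was lost without Naive replicate 2 (-2.12, adjusted p 0.014), Th17 replicate 1 (-2.42, 0.034) or Th17 replicate 2 (-2.26, 0.040). *Xcr1*, the receptor for XCL1, reached 5.55 and 4.99 CPM in Th1 from 0.792 and 0.446 CPM in Naive, and lost its call without Naive replicate 2 (2.73, 0.013) or Th1 replicate 1 (3.01, 0.014).

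Downstream of the receptors, 19 genes of G protein subunits and signal relay were tested. In Th17 against Naive, 0 were called higher and 1 lower, in Th1 against Naive 2 higher and 1 lower, and in Th1 against Th17 2 higher and 0 lower, with medians of -0.40, 0.48 and 0.97. Of all genes, 4.01% and 1.43%, 4.64% and 2.81%, and 2.7% and 2.83% were called in those directions. DESeq2, and edgeR with no filter on low counts, gave 1 higher and 5 lower in Th17 against Naive and 7 higher in Th1 against Th17. *Gnai2*, the main inhibitory subunit with which these receptors couple, was expressed in every library and was not called in any comparison. *Gnaq*, the alpha subunit that activates phospholipase C, stood at 8.97 and 11.9 CPM in Naive, at 19.7 and 14.5 CPM in Th17 and at 133 and 244 CPM in Th1. It was called in Th1 against Naive (4.18) and against Th17 (3.46), and both calls held with each library left out in turn. *Gng2*, a gamma subunit, rose to 173 and 184 CPM in Th1 from 36.3 and 46.5 CPM in Naive (2.11). *Rasgrp2*, an activator of the small GTPase RAP1, fell from 271 and 424 CPM in Naive to 76.1 and 66.4 CPM in Th17 and 58.5 and 110 CPM in Th1. Its call in Th17 was lost without either Th17 library, and that in Th1 without Naive replicate 2 (-1.69, adjusted p 0.014) or Th1 replicate 1 (-1.63, 0.036). *Pik3r5*, a subunit of PI3K-γ, was called higher in Th1 than in Th17 (1.83) and lost that call without any one of those 4 libraries.

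Receptor kinases and arrestins switch the receptors off, and RGS proteins shorten the G protein signal. Of 9 genes in the first list, *Cd74*, a receptor for the ligand MIF that is best known as the invariant chain of antigen-presenting cells, was called higher in Th17 than in Naive (3.12) and lower in Th1 than in Th17 (-2.26). *Adrbk2*, which encodes the receptor kinase GRK3, fell from 6.37 and 3.02 CPM in Naive to 0.263 and 0.126 CPM in Th1 (-4.43), a call lost without Naive replicate 1 (-3.79, adjusted p 0.010) and at -5.14 without Th1 replicate 1. It was also lower in Th1 than in Th17 (-3.30). Neither of the 2 calls in Th1 against Th17 held without any one of those 4 libraries. The list held 1 call higher and 0 lower in Th17 against Naive, 0 and 1 in Th1 against Naive and 0 and 2 in Th1 against Th17, where 4.01% and 1.43%, 4.64% and 2.81%, and 2.7% and 2.83% of all genes were called.

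All 8 RGS genes were tested, with 1 higher and 1 lower in Th17 against Naive, 1 and 2 in Th1 against Naive and 1 and 1 in Th1 against Th17 (medians -0.35, -0.60 and -0.27). The shares of all genes called were 4.01% and 1.43%, 4.64% and 2.81%, and 2.7% and 2.83%. With DESeq2 the counts were 2 and 1, 1 and 2, and 1 and 3. *Rgs1* rose from 14.3 and 22.8 CPM in Naive to 80.9 and 60.7 CPM in Th17 and 66.9 and 70.4 CPM in Th1. *Rgs3* had the order of *Cxcr3*, at 75.1 and 96.5 CPM in Naive, 30.3 and 26.9 CPM in Th17 and 155 and 164 CPM in Th1, and was called lower in Th17 than in Naive (-1.58) and higher in Th1 than in Th17 (2.47), the latter also with each library left out in turn. *Rgs16* (-2.96) and *Rgs2* (-2.84) fell in Th1, and neither call held without Naive replicate 1, Naive replicate 2, Th17 replicate 1 or Th1 replicate 1. Without Th1 replicate 2, *Rgs16* was also lost and *Rgs2* was at -3.98. The calls of *Rgs1* were lost without Naive replicate 1 in both comparisons, without Th17 replicate 1 in Th17 and without Th1 replicate 2 in Th1, that of *Rgs3* in Th17 without Naive replicate 2 or either Th17 library, and that of *Rgs18*, lower in Th1 than in Th17 (-3.48), without any one of those 4 libraries.

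Of 11 genes that act beside chemokine receptors in lymphocyte homing, 1 was called lower and 0 higher in each comparison, beside 1.43%, 2.81% and 2.83% of all genes called lower. DESeq2 called 1 higher and 2 lower in each culture against Naive, and 2 higher and 1 lower in Th1 against Th17. *Itga4*, the alpha 4 integrin, fell from 375 and 496 CPM in Naive to 125 and 82.4 CPM in Th17 (-2.07) and 54.5 and 69.9 CPM in Th1 (-2.81). The fall in Th17 was lost without Th17 replicate 1 (-2.39, adjusted p 0.011) or Th17 replicate 2 (-1.80, 0.029). *Itgae*, the integrin CD103 of tissue-resident T cells, was at 22.8 and 22.7 CPM in Th17 and at 2.82 and 2.21 CPM in Th1 (-3.16, also called with each library left out in turn).

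Genes with the profile most like each receptor were found by the distance between log2 CPM values centred over the 6 libraries, with Pearson's r given as a description over 6 libraries that share 3 cell types. Among the genes nearest to *Cxcr2* were *Gzmb* (distance 1.26, r 0.984) and *Eps8* (1.46, 0.984). *Gzmb*, which encodes granzyme B, stood at 11.7 and 4.70 CPM in Naive, at 379 and 333 CPM in Th17 and at 893 and 463 CPM in Th1.

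*Cxcr3* was nearest to *Tns1* (0.53, r 0.993), *Clic5* (0.60, 0.992) and *Nkg7* (0.74, 0.987). *Nkg7*, a granule protein of cytotoxic lymphocytes, had 40.5 and 23.3 CPM in Naive, 8.38 and 6.79 CPM in Th17 and 109 and 142 CPM in Th1. The nearest to *Cxcr6* were *Cebpd* (0.57, 0.990), *Dusp14* (0.61, 0.989) and *Agpat9* (0.63, 0.986), to *Cxcr4* they were *Uspl1* (0.24, 0.978), *Zfp61* (0.27, 0.980) and *Ice2* (0.28, 0.979), and to *Cx3cr1* they were *Frmd4a* (0.53, 0.990), *Fam109b* (0.59, 0.992) and *Dcaf12l1* (0.64, 0.985). The 3 genes nearest *Cx3cr1* were all higher in Naive replicate 1 than in Naive replicate 2, as *Cx3cr1* was, with *Frmd4a* at 21.0 and 7.53 CPM.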

How the data were processed

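RNA was sequenced from 6 mouse libraries, 2 for each of Naive, Th17 and Th1, with Smart-seq2 cDNA made from polyadenylated RNA. The authors mapped reads to mm10 with HISAT2 2.2.1 and counted reads per gene with HTSeq 0.13.5, and the deposited values are raw counts, whole numbers without normalization. Their methods state default HTSeq settings, their code a reverse-stranded setting, and the cDNA method does not mark strand. The methods also state that duplicates were removed, for which the code shows no step, so whether the counts include duplicates is unclear. Depth ranged from 17742158 to 69080017 counts. Sequenced reads are not independent molecules, so limits from 3 counts cover counting error only.

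Groups came from the sample labels. Using edgeR 4.0.16 and limma 3.58.1 on R 4.3.3, genes were filtered by filterByExpr, scaled by TMM and compared between cell types with the quasi-likelihood test in 1 model of all 6 libraries, with Benjamini-Hochberg adjustment over 13607 genes. The call threshold was an adjusted p-value of 0.01 together with a log2 fold change beyond 1 or -1. The procedure was tested on simulated data. For 2 libraries per group the smallest p of a two-sided exact permutation test is 0.333, so none is given for single genes. Replicates were stated to be independent biological ones.

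CPM per kilobase used the union of exons in GENCODE vM21. Distances and correlations used log2 CPM with a prior count of 2. Promoter sequences are RefSeq's for GRCm38.p6. The genes named are the 5 receptors, the direct ligands, up to 4 called members of each list per comparison with the largest change, and the 3 genes nearest to each receptor. A few genes chosen this way are not reported here. *Gnai2*, *Cxcl1* and single markers named for their level were picked once their values had been seen. The receptors, gene lists and tests were chosen with earlier results of these data known. Alternatives were RLE factors, library size alone, DESeq2 1.42.0, no filter, at least 10 counts in every library, a replicate block, the 4 compared libraries, thinning, an adjusted p-value of 0.05, the longest transcript as length and leaving out each library. Marker sums without receptors and ligands, and list medians at bounds, were added after seeing the data.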

Additional observations from a re-analysis of the deposited data

Results flagged for a closer look

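The change of *Cxcr3* from Naive differed between the cultures. The log2 fold change in Th1 compared with Th17, which is the difference between the changes of Th1 and Th17 from Naive, was 3.64 ± 0.31 (SE, edgeR adjusted p 1.9e-04). Both Th17 libraries (13.6 and 9.45 CPM) lay below both Naive libraries (48.3 and 47.5 CPM), and both Th1 libraries (122 and 167 CPM) lay above them.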

How the results depend on the processing

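None of the 234 alternative log2 fold changes of the 5 receptors reversed. Of these, 210 stayed on the same side of the threshold, 10 lost the call and 14 gained it. Of 45 alternative CPM values 41 stayed within 1 SD of the replicates, as did all 15 per kilobase. *Cxcr2* and *Cxcr6* against Naive and *Cxcr3* in Th1 against Th17 were called in every setting in which they were tested. Without TMM, by library size alone, the median of all genes shifted by -0.25 in Th1 against Naive and by -0.21 in Th1 against Th17.

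The number of receptors called in Th1 against Naive was 4 and fell to 2 when at least 10 counts were required in every library, since *Cxcr2* and *Cx3cr1* were then not tested. Leaving out one library gave 2 to 4 there, 2 to 3 in Th17 against Naive, and 1 to 2 in Th1 against Th17. In Th1 against Th17 the number rose from 1 to 2, *Cxcr2* being added, with DESeq2, without a filter, with only the 4 libraries compared and at an adjusted p of 0.05.

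Over all genes, 739, 1014 and 752 were called in Th17 against Naive, Th1 against Naive and Th1 against Th17. DESeq2 called 1738, 1928 and 1824, edgeR without a filter 2154, 2259 and 2232, and a threshold of 0.05 gave 2063, 2164 and 2112. At least 10 counts in every library gave 369 in the first and 442 in the last, where fewer genes were tested. Leaving out one library gave 319 to 887, 516 to 939 and 266 to 1016. The first count was 451 without Naive replicate 1, 319 without Th17 replicate 1 and 384 without Th17 replicate 2, the second 516 without Naive replicate 1 and 562 without Th1 replicate 1, and the last 286, 266, 455 and 412 without Th17 replicates 1 and 2 and Th1 replicates 1 and 2. The cause of the other differences was not tested.

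The replicate number as a block, by edgeR or DESeq2, called 2 receptors in Th1 against Th17, *Cxcr2* with 1.83 (edgeR adjusted p 0.0062) and 1.84 (DESeq2, 4.0e-04) being added. With DESeq2 the replicate block gave 1517, 1796 and 1635 genes and also called *Cxcr4* in Th1 against Naive (-1.10, 0.0068). The deviations of replicate 1 from replicate 2 correlated between groups with r = -0.23 for Naive and Th17, 0.17 for Naive and Th1 and 0.077 for Th17 and Th1. No label ties the replicate numbers to a shared batch, so equal numbers were not treated as pairs. Replicate 1 was the deeper library in each group, so an effect of replicate number cannot be told apart from depth. Depth limits *Cxcr2* in Naive (41 and 3 counts) and *Cx3cr1* in Th1 (26 and 3 counts), and with 2 libraries a group the spread rests on few values.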
